A study of Mus musculus with 12 samples.

Results

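Voltage-gated calcium channel subunits and the RGK proteins that hold these channels back were examined in mouse ventricles, through 9 genes of the 33641 listed in each sample. The genes were taken by symbol: Cacna1c, Cacnb2, Cacna2d1, Cacna1g, Cacna1h and Cacng6 encode channel subunits, and Rrad, Gem and Rem1 encode RGK proteins. Each symbol occurred in all 12 samples, and all 9 genes passed the filter for testing, a mean of at least 0.5 TPM (a share of all transcripts after correction for gene length). RNA came from frozen left ventricle (LV) or right ventricle (RV) of mice aged 12 to 14 weeks, labelled with the strain C57BL/6J. In both genotypes the human phospholamban (PLN) coding sequence had been placed in the endogenous mouse gene, as the normal form (WT-PLN) or with the deletion of arginine 14 (R14del-PLN). There were 3 samples each of LV WT-PLN, RV WT-PLN, LV R14del-PLN and RV R14del-PLN. The study's methods describe male mice, those of R14del-PLN heterozygous for the R14del allele after a cross of homozygous WT-PLN and R14del-PLN parents, and a hybrid line bred from chimeras of 129/Sv-CP and C57Bl/6J that were crossed to Sox2-Cre mice. Every group therefore carried the same kind of insertion, and none was an unmodified mouse.

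The L-type calcium channel of cardiac muscle admits the calcium that triggers release from the sarcoplasmic reticulum, and it is built from a pore (Cacna1c), a beta subunit that brings the pore to the membrane (Cacnb2) and an alpha-2-delta subunit that lies largely outside the cell (Cacna2d1). T-type channels (Cacna1g and Cacna1h) open at more negative voltages and are best known in pacemaker and conduction tissue. The RGK proteins are small GTP-binding proteins that bind the beta subunit and reduce the current. Phosphorylation of the RGK protein Rad, the product of Rrad, is a step by which beta-adrenergic signals raise the L-type current.

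Some libraries stood apart before any gene was compared. The summed level of 5 atrial markers was highest in LV WT-PLN replicate 3 (1296 TPM), RV WT-PLN replicate 2 (871 TPM) and RV R14del-PLN replicate 2 (521 TPM), and lay between 45.6 and 319 TPM in the others. The 7 markers of ventricular cardiomyocytes were present in every sample. The first WT-PLN sample of each ventricle had 0.250 and 0.284 TPM summed over 4 Y-linked genes, against 43.5 to 63.7 TPM in the other 10, although the methods describe males. Mitochondrially encoded genes took 37.3 to 54.5% of the TPM, with the lowest share in LV R14del-PLN replicate 3. The file of RV R14del-PLN replicate 3 carries another sequencing run number than the other 11. Pln itself was at 1559 to 1963 TPM, a level that does not tell the genotypes apart. Sequencing depth cannot be read from TPM, so no error from counting is given. The labels do not say which samples share a mouse, so p-values measure only the spread between these samples.

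One gene supplied most of the transcripts of each channel subunit class. Cacna1c held 67.1 to 78.2% of the TPM of the 10 alpha-1 (pore) genes across the 12 samples. Cacnb2 held 84.4 to 91.4% of the 4 beta genes, and Cacna2d1 held 91.3 to 98.3% of the 4 alpha-2-delta genes. Among the 4 RGK genes, Rrad held 82.3 to 96.7%, and Rem2 was listed at 0 in 8 samples. The gamma genes were the exception, as the share of Cacng6 among the 8 of them ran from 6.98 to 75.2%. Averaged over all samples, the order of the levels was Rrad (54.9 TPM), Cacna1c (37.2 TPM), Cacna2d1 (37.1 TPM), Cacnb2 (24.8 TPM), Cacna1g (3.29 TPM), Rem1 (2.27 TPM), Gem (1.48 TPM), Cacng6 (1.27 TPM) and Cacna1h (1.08 TPM). Neighbours in this order overlapped in their ranges over the samples, except that every Cacnb2 value lay above every Cacna1g value.

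In LV, 0 of the 9 genes were called different between R14del-PLN and WT-PLN, at an adjusted p of at most 0.05 (limma, Benjamini-Hochberg over all genes tested) and a fold change of at least 1.5. Of all 12526 genes tested, 0.519% were called there. At an unadjusted p of at most 0.05, 3 of the 9 stood out in LV, namely Rrad and Cacng6 with positive values and Gem with a negative one, beside 9.6% of all genes. In RV, 0 of the 9 were called beside 0.271% of all genes, and Rrad and Cacng6 had an unadjusted p of at most 0.05, beside 6.22%. The 9 genes were chosen with earlier results of these data known, so these counts cannot show an excess over all genes. The median log2 fold change of the 9 was -0.15 in LV and 0.18 in RV, against -0.086 and -0.0034 over all genes tested. With both ventricles averaged in 1 contrast, a comparison added after the values were seen, 1 of the 9 was called (Rrad, higher in R14del-PLN), beside 1.43% of all genes and 0.367% called higher. That contrast took the 12 samples as independent. With LV and RV samples of one number first averaged, 3 against 3, 0 of the 9 were called, beside 0.758% of all genes.

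**Figure D1:**
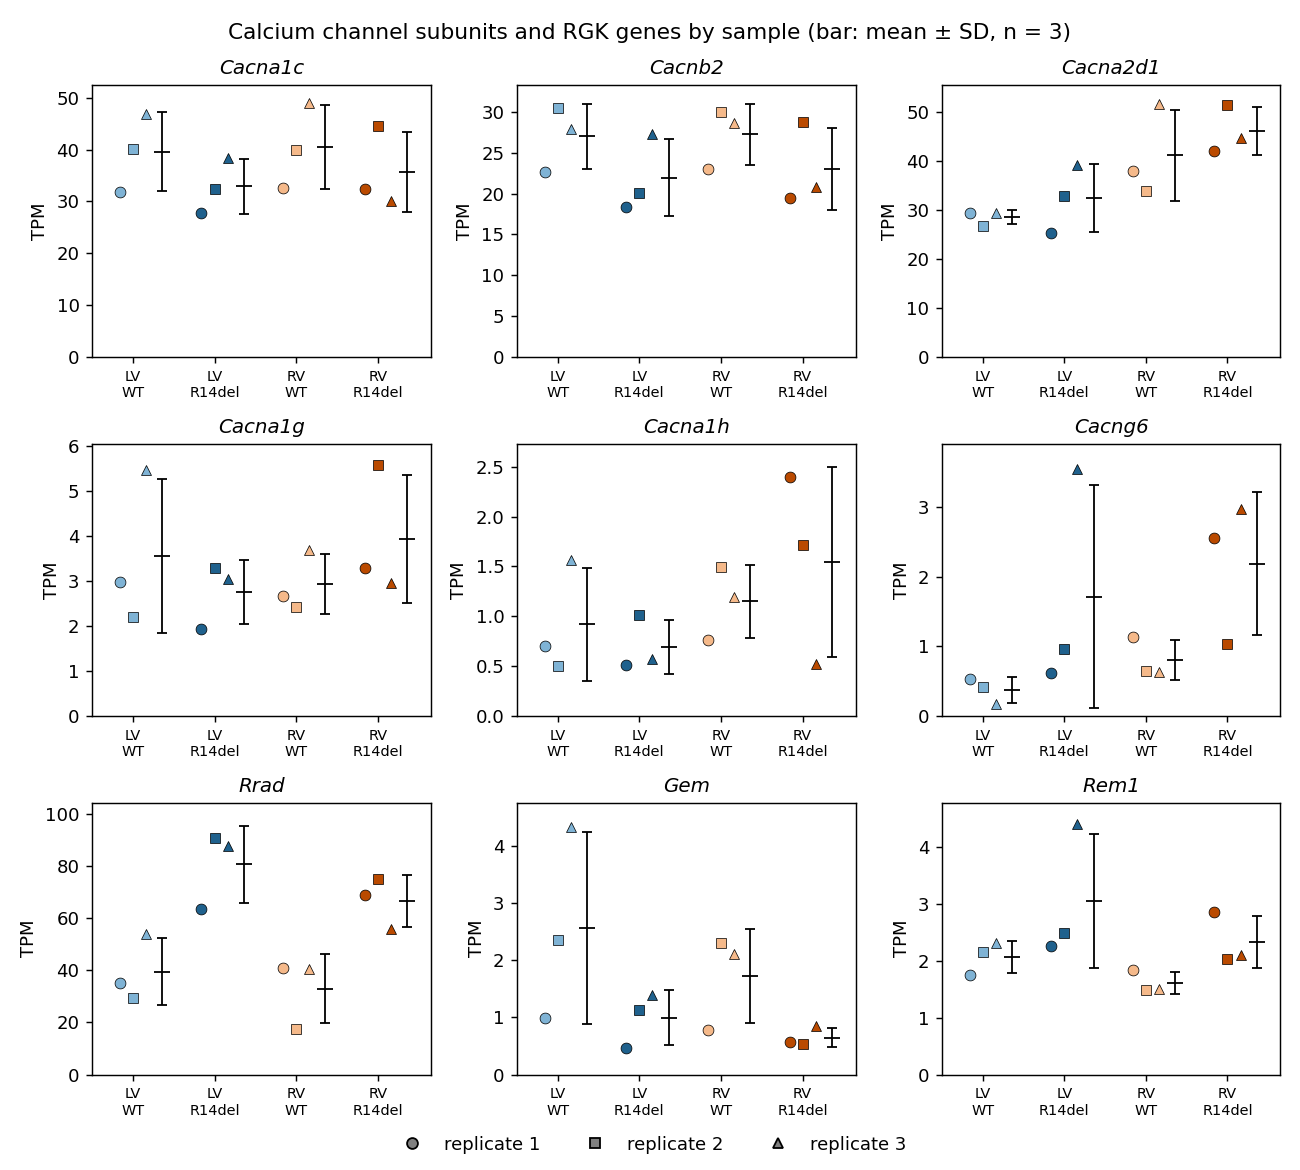
TPM of the 9 genes in each sample by ventricle and genotype, with the replicate number as the symbol and the mean ± SD of each group (n = 3) beside the points. All 6 R14del-PLN samples lie above all 6 WT-PLN samples for Rrad, and the RV samples lie above the LV samples of the same genotype for Cacna2d1.

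Of the 9 genes, Rrad showed the largest difference between genotypes on the scale of log2(TPM + 1) and in TPM. With 0.1 in place of 1 added to the TPM, Cacng6 had larger log2 differences (1.67 in LV and 1.26 in RV) than Rrad (1.06 and 1.10), and Gem had -1.17 and -1.19, all uncalled. Rrad lies on chromosome 8 of GRCm38 (GENCODE M21) from 104628070 to 104631327 on the minus strand, where Gm33023 overlaps it on the opposite strand. In LV, Rrad was at 35.0, 29.5 and 53.8 TPM in WT-PLN and at 63.6, 90.5 and 87.7 TPM in R14del-PLN replicates 1 to 3. In RV, it was at 40.7, 17.6 and 40.6 TPM in WT-PLN and at 68.6, 75.1 and 55.6 TPM in R14del-PLN. The groups did not overlap in either ventricle, and the lowest R14del-PLN value, 55.6 TPM, lay above the highest WT-PLN value, 53.8 TPM. Groups that did not overlap with R14del-PLN on the higher side were found for 2.48% of all genes in LV and 5.19% in RV. The group means were 39.4 ± 12.8 and 80.6 ± 14.8 TPM in LV, and 33.0 ± 13.3 and 66.4 ± 9.90 TPM in RV (SD, n = 3 each).

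On the scale of log2(TPM + 1), the difference in Rrad was 1.04 in LV (SE 0.29, a 2.06-fold change, limma adjusted p = 0.208). In RV it was 1.07 (SE 0.29, 2.10-fold, limma adjusted p = 0.245). Neither passed the threshold over all genes, while the estimates in the ventricles lay close to each other, and their difference was 0.031 with a 95% confidence interval from -0.86 to 0.93. Averaged over the ventricles with the 12 samples taken as independent, Rrad rose by 1.06 in R14del-PLN (SE 0.21, 95% confidence interval 0.608 to 1.503, 2.08-fold, limma adjusted p = 0.0171). In WT-PLN, deviations from group means correlated between LV and RV samples of one number at 0.657, 0.321 and 0.457. The numbers thus paired the ventricles in WT-PLN, so the 12 samples were not all independent. With the genotype and number as a random block, the limma adjusted p of this average was 0.0219. That block used 1 correlation for all genes, 0.0885, so it allowed for little pairing. When LV and RV samples sharing a number were first averaged into 1 value, leaving 3 against 3, the limma adjusted p was 0.0811 and the call was lost. The call was also lost without LV WT-PLN replicate 2 (0.96, adjusted p = 0.05 after rounding, above the threshold before it) and without LV R14del-PLN replicate 2 (1.01, adjusted p = 0.0507), and it held without each of the other 10 samples. When only the 6 samples of one ventricle entered the limma fit, the adjusted p of Rrad was 0.049 in LV and 0.383 in RV.

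Cell type markers moved with some of these samples. Without the 3 samples highest in atrial markers, the averaged difference of Rrad was 0.94 (limma adjusted p = 0.00587), with 1.28 in LV (adjusted p = 0.0105) and 0.59 in RV (adjusted p = 0.773). Of the 5 atrial markers, Sln was listed at 0 in 1 sample and Bmp10 in 2, and the list's summed level ranged from 207 to 1296 TPM in LV WT-PLN, 86.4 to 871 TPM in RV WT-PLN, 145 to 319 TPM in LV R14del-PLN and 45.6 to 521 TPM in RV R14del-PLN. The 3 red cell markers (Hba-a1, Hbb-bs and Alas2) summed to 1285 to 1418 TPM in WT-PLN and 665 to 1218 TPM in R14del-PLN of LV, and to 879 to 1082 and 601 to 779 TPM in RV. Each of the 3 was lower in every R14del-PLN sample than in every WT-PLN sample of the same ventricle. For Alas2 in LV the gap was narrow, 7.42 against 7.44 TPM. Such a separation on the lower side was found for 8.47% of all genes in LV and 5.79% in RV. The log2 differences of the 3 ran from -0.66 to -0.38, and 0 of the 3 was called in either ventricle. The 7 ventricular cardiomyocyte markers had median log2 differences of -0.031 in LV and 0.021 in RV, and 0 of them was called. The part of red cells in the Rrad difference was not tested. In whole ventricle, fewer cells of a type cannot be told apart from less RNA per cell. Without RV R14del-PLN replicate 3, the sample with another run number, Rrad differed by 1.19 in RV (limma adjusted p = 0.366).

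**Figure D2:**
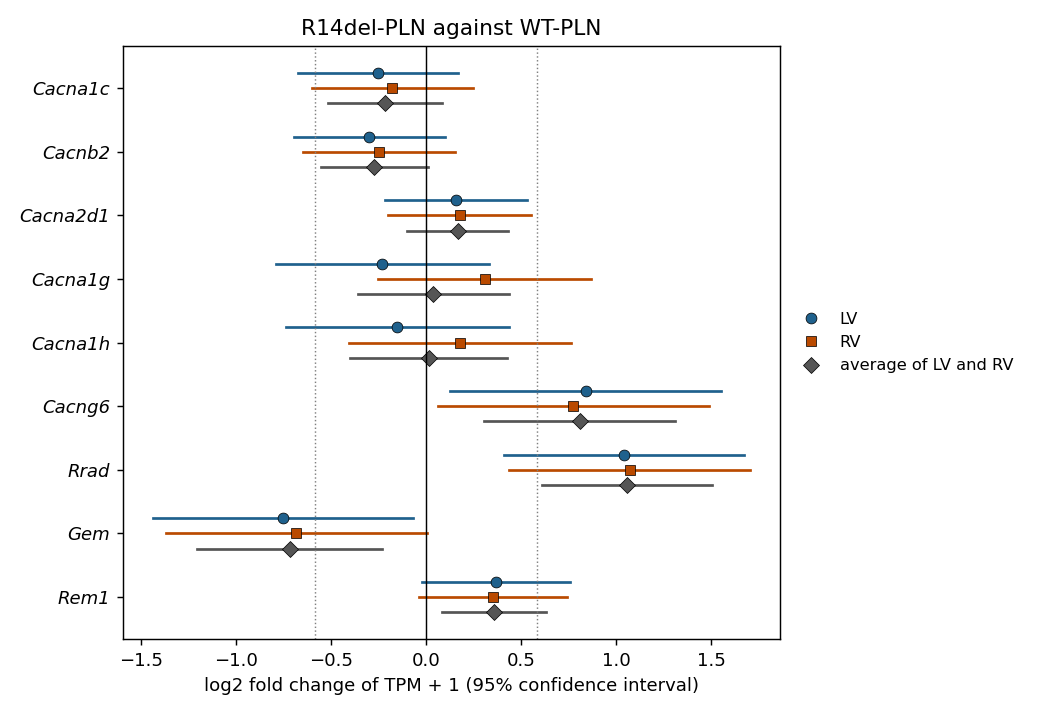
Log2 fold change of TPM + 1 between R14del-PLN and WT-PLN for the 9 genes in LV, in RV and averaged over the ventricles, with 95% confidence intervals from limma and dotted lines at a 1.5-fold change. The intervals of Rrad and Cacng6 lie above 0 in both ventricles, and those of Cacna1c, Cacnb2, Cacna2d1, Cacna1g and Cacna1h include 0.

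The balance between the inhibitor and the pore was also read within each sample, as a description without a test. The ratio of Rrad to Cacna1c, both per transcript length, was 1.10, 0.735 and 1.15 in LV WT-PLN and 1.25, 0.443 and 0.831 in RV WT-PLN. It was 2.28, 2.79 and 2.28 in LV R14del-PLN and 2.12, 1.69 and 1.85 in RV R14del-PLN. All 6 R14del-PLN ratios lay above all 6 WT-PLN ratios. Rrad by itself was already separate in this way, so the ratio was not a further result. No share over all genes was worked out for it. The group means were 0.995 ± 0.226 and 2.45 ± 0.292 in LV, and 0.841 ± 0.403 and 1.88 ± 0.219 in RV (SD, n = 3 each). The ratio of Rrad to Cacnb2, whose product the RGK proteins bind, had means of 1.48 ± 0.485 and 3.72 ± 0.684 in LV and of 1.26 ± 0.606 and 2.94 ± 0.510 in RV. In LV, the sum of the 4 RGK genes ran from 34.0 to 60.6 TPM in WT-PLN and from 66.3 to 94.1 TPM in R14del-PLN. In RV, the sum ran from 21.5 to 44.2 TPM in WT-PLN and from 58.6 to 77.6 TPM in R14del-PLN. The genotypes were thus separate within each ventricle. With both ventricles pooled, the sums overlapped where the ratios did not.

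**Figure D3:**
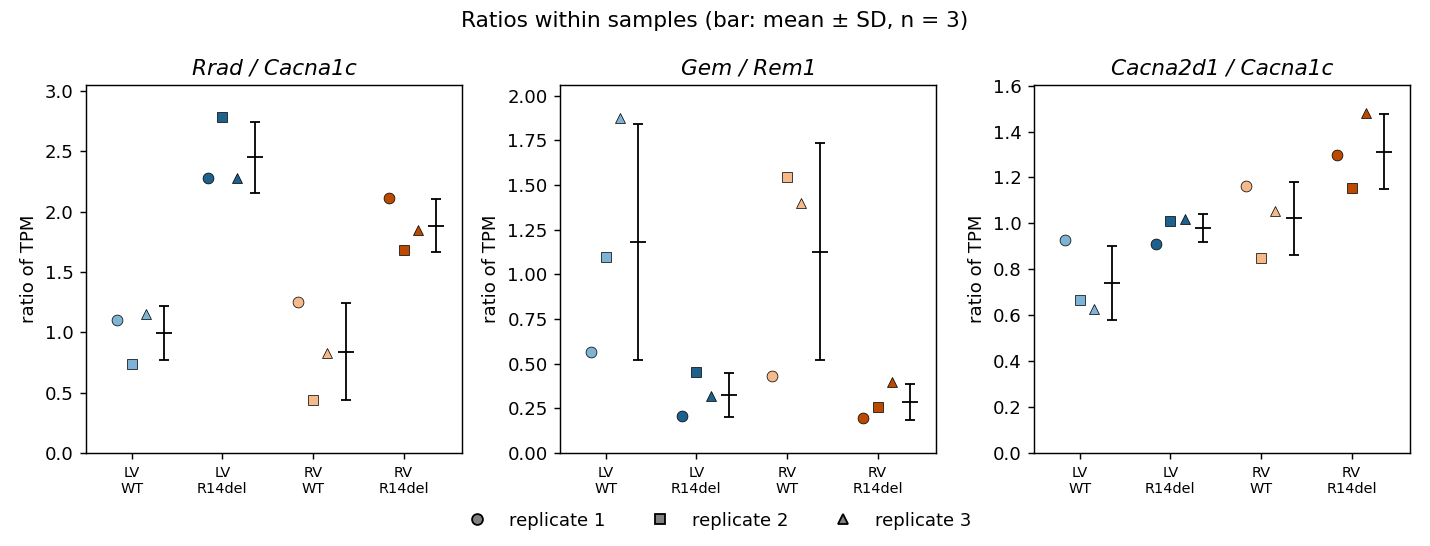
Ratios of TPM within each sample for Rrad over Cacna1c, Gem over Rem1 and Cacna2d1 over Cacna1c, with replicate numbers as symbols and the mean ± SD (n = 3) beside them. For Rrad over Cacna1c, the R14del-PLN samples sit between 1.69 and 2.79 and the WT-PLN samples between 0.443 and 1.25.

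Gem, a second RGK gene, gave values in the opposite direction. It lies on chromosome 4 from 11704457 to 11714752 on the plus strand. Gem was at 0.991, 2.36 and 4.34 TPM in LV WT-PLN, and at 0.462, 1.13 and 1.40 TPM in LV R14del-PLN. In RV, it was at 0.787, 2.29 and 2.11 TPM in WT-PLN and at 0.570, 0.530 and 0.843 TPM in R14del-PLN. The first WT-PLN sample was the lowest of its group in both ventricles and lay within the R14del-PLN range, so the genotypes overlapped in both. The log2 difference was -0.75 in LV (SE 0.32, limma adjusted p = 0.46) and -0.68 in RV (SE 0.32, adjusted p = 0.803), and averaged over the ventricles it was -0.72 (SE 0.22, adjusted p = 0.142). Gem was not called in these 3 comparisons.

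The call for Gem turned on the first WT-PLN samples, which also had low Y-linked levels. Without both of them, the averaged difference was -1.04 (limma adjusted p = 0.00373) and the LV difference was -1.11 (adjusted p = 0.0331), and both were called. Without LV WT-PLN replicate 1 alone, the averaged difference was -0.90 and was called (adjusted p = 0.0233). In the other direction, the averaged difference was -0.44 without the 3 samples highest in atrial markers (adjusted p = 0.616). Gem reached its highest level, 4.34 TPM, in LV WT-PLN replicate 3, the sample with the highest atrial and smooth muscle marker levels, and the part of these cells in the result was not tested. The 9 smooth muscle and pericyte markers summed to 486 TPM in that sample and to 198 to 331 TPM in the other 11.

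Rem1, the third RGK gene with a measurable level, lies on chromosome 2 from 152626951 to 152635198 on the plus strand. Rem1 was at 1.75, 2.15 and 2.31 TPM in LV WT-PLN, and at 2.26, 2.49 and 4.41 TPM in LV R14del-PLN. In RV, the values were 1.84, 1.48 and 1.51 TPM in WT-PLN and 2.87, 2.04 and 2.11 TPM in R14del-PLN. The groups did not overlap in RV, but they did in LV, where the top value came from the sample with the lowest mitochondrial share. The log2 difference was 0.37 in LV (SE 0.18, limma adjusted p = 0.556) and 0.35 in RV (SE 0.18, adjusted p = 0.869), and neither was called. The ratio of Gem to Rem1 within samples was between 0.429 and 1.88 in WT-PLN and between 0.199 and 0.454 in R14del-PLN. Among RGK transcripts, the share of Gem was 5.57 ± 2.56% in LV and 5.76 ± 4.52% in RV of WT-PLN, and 1.13 ± 0.403% and 0.970 ± 0.409% in R14del-PLN (SD, n = 3 each). Near-identical copies were not found for Rrad, Gem or Rem1, and those of Rem2 were not sought.

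The pore and beta subunit of the L-type channel had lower means in R14del-PLN, within the spread of the samples. Cacna1c lies on chromosome 6 from 118587240 to 119196418 on the minus strand, and Cacnb2 lies on chromosome 2 from 14603088 to 14987908 on the plus strand. Cacna1c was at 31.8, 40.1 and 46.9 TPM in LV WT-PLN and 27.9, 32.5 and 38.5 TPM in LV R14del-PLN. In RV, Cacna1c was at 32.6, 39.9 and 48.9 TPM in WT-PLN and 32.4, 44.5 and 30.1 TPM in R14del-PLN. The genotypes overlapped in both ventricles. The log2 difference was -0.25 in LV (95% confidence interval -0.68 to 0.17, limma adjusted p = 0.756) and -0.18 in RV (-0.60 to 0.25, adjusted p = 1). Both intervals hold 0 and also reach past a 1.5-fold lower level, so a modest fall could not be told from no difference.

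Cacnb2 followed the same course. It was at 22.6, 30.5 and 27.9 TPM in LV WT-PLN and 18.4, 20.1 and 27.3 TPM in LV R14del-PLN. In RV, it was at 23.1, 30.0 and 28.6 TPM in WT-PLN and 19.5, 28.7 and 20.8 TPM in R14del-PLN. All 4 ranges overlapped. The log2 difference was -0.30 in LV (SE 0.18, limma adjusted p = 0.668) and -0.25 in RV (SE 0.18, adjusted p = 1), and the average was -0.27 (95% confidence interval -0.55 to 0.0095, adjusted p = 0.366). The ratio of Cacnb2 to Cacna1c stayed between 0.586 and 0.760 in all 12 samples. A pseudogene, Gm10849, lies within Cacnb2 on the opposite strand and shares near-identical sequence with it, but its mean was 0.0603 TPM. Dcp1b, at a mean of 0.825 TPM, overlaps Cacna1c on the other strand, and whether the values were counted by strand is not stated in the sources used here.

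Cacng6 was the subunit with the largest relative difference between genotypes, at a very low level. It encodes a gamma subunit, a membrane protein of a family first known from the skeletal muscle channel, and it lies on chromosome 7 from 3424195 to 3435667 on the plus strand. In LV, Cacng6 was at 0.524, 0.418 and 0.172 TPM in WT-PLN and at 0.621, 0.967 and 3.55 TPM in R14del-PLN. In RV, it was at 1.14, 0.641 and 0.628 TPM in WT-PLN and at 2.56, 1.03 and 2.97 TPM in R14del-PLN. The groups were separate in LV by a narrow gap and overlapped in RV. The log2 difference was 0.84 in LV (SE 0.33, limma adjusted p = 0.412) and 0.78 in RV (SE 0.33, limma adjusted p = 0.734). At these levels, the added 1 TPM makes the fold change smaller than the ratio of the TPM values themselves.

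The average over ventricles for Cacng6 was 0.81 (SE 0.23, limma adjusted p = 0.106) and was not called. Single samples weighed on it: without LV R14del-PLN replicate 3, which had the lowest mitochondrial share, the LV difference was 0.39 and the average 0.58. Without RV R14del-PLN replicate 2 the average was 0.96 and was called (adjusted p = 0.0427). Without RV R14del-PLN replicate 3, the sample with another run number, the RV difference was 0.59.

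The T-type pores did not differ between genotypes beyond their spread. Cacna1g lies on chromosome 11 from 94408391 to 94474198, and Cacna1h on chromosome 17 from 25374285 to 25433783, both on the minus strand. Cacna1g was at 2.97, 2.20 and 5.47 TPM in LV WT-PLN and 1.94, 3.27 and 3.04 TPM in LV R14del-PLN. In RV, Cacna1g was at 2.67, 2.41 and 3.67 TPM in WT-PLN and 3.29, 5.57 and 2.94 TPM in R14del-PLN. Its 2 highest values came from LV WT-PLN replicate 3 and RV R14del-PLN replicate 2, which were also the samples with the highest summed conduction system markers (8.98 and 7.46 TPM, against 3.81 to 6.98 TPM in the others). The sample next in these markers, RV WT-PLN replicate 2 at 6.98 TPM, had Cacna1g at only 2.41 TPM. Of the 6 conduction markers, Isl1 was listed at 0 in 10 samples, and the part of conduction tissue in the result was not tested. The log2 difference of Cacna1g was -0.23 in LV and 0.31 in RV (SE 0.26 each, limma adjusted p = 0.85 and 1). Without the 3 samples highest in atrial markers, these values were 0.056 and -0.010.

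Cacna1h was the lowest of the 9 genes. It ranged from 0.497 to 1.56 TPM in LV WT-PLN and from 0.514 to 1.01 TPM in LV R14del-PLN. In RV, it ranged from 0.764 to 1.49 TPM in WT-PLN and from 0.523 to 2.40 TPM in R14del-PLN. The groups overlapped in both ventricles, with log2 differences of -0.15 in LV and 0.18 in RV (SE 0.27 each, limma adjusted p = 0.916 and 1).

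An interaction term asked whether the genotype effect itself differed from one ventricle to the other. For all genes tested, 0% were called, and 1.01% had an unadjusted p of at most 0.05. None of the 9 reached either mark. The largest estimate was that of Cacna1g, 0.54 on the log2 scale (SE 0.37, limma adjusted p = 1). For Rrad the interaction was 0.031, for Gem 0.069 and for Cacng6 -0.064, with an SE of 0.41, 0.45 and 0.47, so differences of moderate size between the ventricles could not be detected.

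Between the ventricles, none of the 9 was called by limma, and Cacna2d1 was the member whose RV samples lay above its LV samples in both genotypes. It lies on chromosome 5 from 15934691 to 16374511 on the plus strand. In WT-PLN, Cacna2d1 was at 29.4, 26.8 and 29.5 TPM in LV and 37.9, 33.9 and 51.5 TPM in RV. In R14del-PLN, it was at 25.3, 32.8 and 39.2 TPM in LV and 42.1, 51.5 and 44.7 TPM in RV. Groups without overlap and with RV on the higher side were found for 0.974% of all genes in WT-PLN and 1.26% in R14del-PLN, while 25.2% and 8.72% of genes had RV on the lower side. The log2 difference was 0.49 in WT-PLN (SE 0.17, a 1.40-fold change, limma adjusted p = 0.289) and 0.51 in R14del-PLN (SE 0.17, 1.42-fold, limma adjusted p = 0.714).

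Neither ventricle difference of Cacna2d1 was called, and 0% of all genes were called between the ventricles in either genotype by limma, although 14.5% in WT-PLN and 6.57% in R14del-PLN had an unadjusted p of at most 0.05. The median of all genes tested was -0.17 between RV and LV in WT-PLN and -0.076 in R14del-PLN. After quantile normalization, which moved the WT-PLN median to 0.0051, all 9 genes stayed uncalled. With the genotype and number as a fixed block, which compares RV and LV samples of one number, the adjusted p of Cacna2d1 was 0.19 for the WT-PLN hearts and 0.611 for the R14del-PLN hearts. The ratio of Cacna2d1 to Cacna1c was 0.741 ± 0.162 in LV and 1.02 ± 0.159 in RV of WT-PLN, and 0.980 ± 0.0607 and 1.31 ± 0.163 in R14del-PLN (SD, n = 3 each). Between genotypes, the log2 difference of Cacna2d1 was 0.16 in LV and 0.18 in RV (SE 0.17 each, adjusted p = 0.847 and 1).

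**Figure D4:**
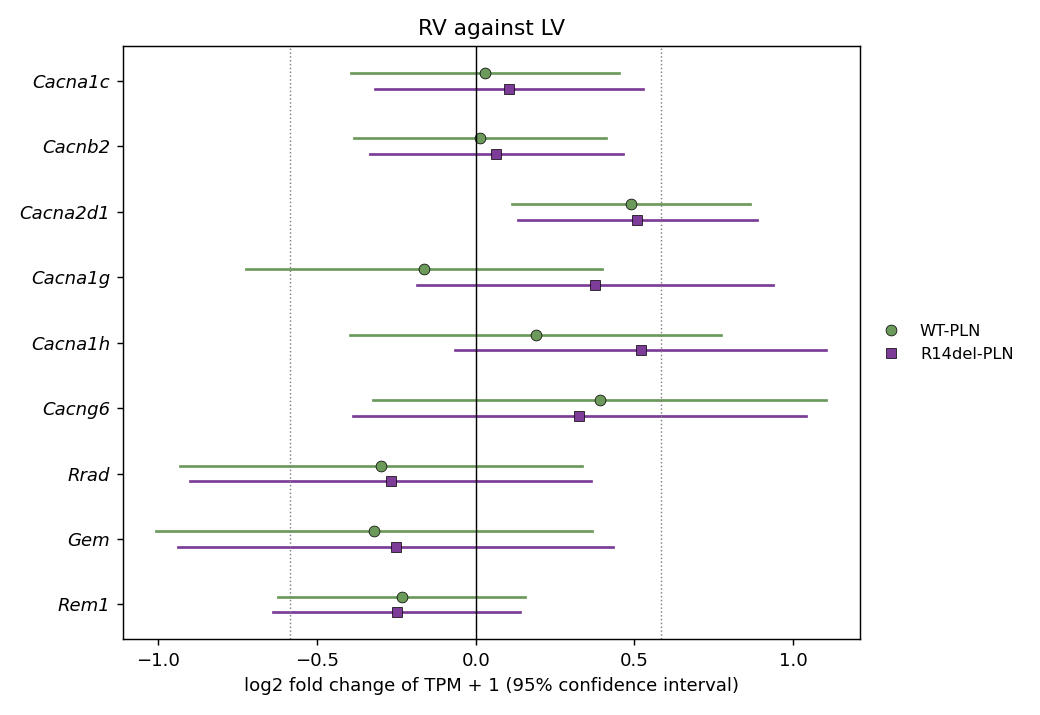
Log2 fold change of TPM + 1 between RV and LV for the 9 genes in WT-PLN and in R14del-PLN, with 95% confidence intervals from limma and dotted lines at a 1.5-fold change. The intervals of Cacna2d1 lie above 0 in both genotypes (0.11 to 0.87 and 0.13 to 0.89), and those of the other 8 genes include 0.

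The 250 bases before the RefSeq start of Cacna2d1 are shown because this gene had the lowest unadjusted p of the 9 between the ventricles in both genotypes, without being called, and because the window ends at the base before the GENCODE gene start. The window is chr5:15934441-15934690 of GRCm38.p6 on the plus strand, and capitals mark each GC box, searched as GGGCGG on both strands.
Cacna2d1: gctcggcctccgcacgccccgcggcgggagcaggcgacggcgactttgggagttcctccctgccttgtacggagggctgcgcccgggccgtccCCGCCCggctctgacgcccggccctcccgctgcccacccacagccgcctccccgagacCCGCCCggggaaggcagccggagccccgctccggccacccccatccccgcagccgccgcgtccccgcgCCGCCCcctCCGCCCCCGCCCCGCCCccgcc
The window held 6 GC boxes, of which the last pair share 1 base, and 32.7% of the 32851 promoter windows of this length in the RefSeq table held at least 1. It held no TATAAA, no CACGTG and no TGACGTCA on either strand, letters that occur in 12.4%, 6.02% and 1.55% of the windows. Its GC content was 82.4%, against a median of 52.4%. These matches describe the sequence, and no binding was measured. The RefSeq table had entries for 5 of the 9 genes.

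For the other genes between RV and LV, no difference passed the test. Cacng6 had RV samples above LV samples in WT-PLN, with a log2 difference of 0.39 (SE 0.33, limma adjusted p = 0.55), and it overlapped in R14del-PLN. Cacna1h had a difference of 0.52 in R14del-PLN (SE 0.27, adjusted p = 0.809), with 2.40 and 1.71 TPM in the first and second RV samples and 0.523 TPM in the third. The WT-PLN and R14del-PLN values were -0.30 and -0.27 for Rrad, -0.32 and -0.25 for Gem, and -0.23 and -0.25 for Rem1. Cacna1c and Cacnb2 lay between 0.014 and 0.11 in both genotypes.

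Of 20 other subunit genes, 6 were tested, and 0 were called in either ventricle between genotypes or between the ventricles. The other 14 were below the filter. Their median log2 difference between genotypes was -0.050 in LV and 0.083 in RV, with single values from -0.28 to 0.18, beside -0.086 and -0.0034 over all genes. Between RV and LV in WT-PLN, single values ran from -0.36 (Cacng7) to 0.18 (Cacna1a). Cacnb1 (-0.33) and Cacnb3 (-0.27) had RV below LV without overlap there, as did 25.2% of all genes tested. Over all genes tested, the median there was -0.17. In R14del-PLN, single values ran from -0.16 (Cacnb1) to 0.29 (Cacna2d2). Cacna2d2 had RV above LV without overlap there, as did 1.26% of all genes tested. Cacna1s, the pore of the skeletal muscle L-type channel, was the second pore gene by level at 5.04 to 8.80 TPM. Cacna1a, the P/Q-type pore, was at 1.11 to 2.94 TPM, Cacnb1 at 1.63 to 3.58 TPM and Cacng7 at 0.674 to 1.98 TPM.

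Of 14 partners of the channel and its RGK inhibitors, 9 were tested and 0 were called between genotypes. Their median log2 difference was -0.077 in LV and -0.014 in RV. Prkaca, the catalytic subunit of protein kinase A that phosphorylates Rad, was at 88.1 to 116 TPM, and Prkacb at 10.98 to 17.0 TPM. Adrb1, a receptor upstream of it, was at 3.35 to 4.94 TPM. Jph2 and Bin1, which shape the membrane junction where the channel sits, were at 83.1 to 133 and 1.31 to 2.85 TPM, and Cav3, the muscle caveolin, was at 26.2 to 48.0 TPM. Ahnak, a large protein that binds the beta subunit, was at 25.3 to 59.9 TPM, and the anchoring protein Akap7 at 16.2 to 23.2 TPM.

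Akap5, another anchoring protein for protein kinase A, fell below the filter and was singled out after its values were seen. It was at 0.146 ± 0.0173 TPM in LV and 0.139 ± 0.0260 TPM in RV of WT-PLN, and at 0.450 ± 0.135 and 0.395 ± 0.0991 TPM in R14del-PLN (SD, n = 3 each). In both ventricles the R14del-PLN values lay above the WT-PLN values. Among the 12526 genes tested, 2.48% in LV and 5.19% in RV were separate on this side. No such share was worked out for genes below the filter. When all 22948 genes with any value above 0 entered the fit, Akap5 had log2 differences of 0.34 for LV and 0.29 for RV, with limma adjusted p of 0.126 and 0.274, and it was not called. The added 1 TPM held these values to 1.26-fold and 1.22-fold, under the 1.5-fold threshold, so these values could not have been called whatever their p.

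Likeness of pattern was measured as Pearson's r of log2(TPM + 1) over the 12 samples, which include the group differences and share library effects. The 5 genes most like Rrad were Sox4 (0.97), Cxxc5 (0.96), Trib2 (0.96), Fam219b (0.95) and Prickle1 (0.94). Within groups, as deviations from the 4 group means, these r were between 0.82 and 0.93. Their log2 differences between genotypes were positive in both ventricles, from 0.33 for Cxxc5 in LV to 0.80 for Sox4 in RV, and none was called. Genes chosen for their likeness to Rrad over all 12 samples would tend to share its direction, so this is no separate result. Of the other members, Rem1 was the most like Rrad (r = 0.71) and Cacnb2 the least (r = -0.47).

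For Gem, the most similar genes were Slc38a6 (0.97), Mob3a (0.96), Rybp (0.95), Plk3 (0.95) and Dynll1 (0.95). Gem and Rrad had an r of -0.43 over all samples and 0.11 within groups. Cacna1c was most like Camsap2 (0.98), Vps13b (0.97), Ide (0.97), Txlnb (0.97) and Lysmd3 (0.97), and its r with Cacnb2 was 0.88. Cacna1h was most like Osr1 (0.90), C5ar1 (0.90), 1700109H08Rik (0.88), Aldh1l2 (0.87) and Cpa3 (0.83). These r rank genes among the 12526 tested, and no test was applied to them.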

How the data were processed

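Polyadenylated, stranded RNA libraries of 12 ventricle samples were analysed. The authors deposited TPM values for each gene and sample, which were used as deposited. The methods name CLC Genomics Workbench and GRCm38, but the program and annotation behind the deposited TPM are not given in the sources used here. Groups came from the labels, with KO in the titles read as R14del-PLN. Group means were compared with limma 3.58.1 in R 4.3.3 (an intensity trend, with 8 residual degrees of freedom and 5.15 prior ones) on log2(TPM + 1) for the 12526 genes whose mean reached 0.5 TPM. Simulated data with known changes were used to check the model. Named were the 9 genes, pathway genes called or with a mean of at least 1 TPM (not all are reported here), and the 5 genes most like Rrad, Gem, Cacna1c and Cacna1h. The members and lists were chosen with earlier results of these data known. The samples were not blocked by number. As a check, deviations from group means of LV and RV samples with one number correlated at 0.657, 0.321 and 0.457 in WT-PLN and at 0.389, 0.230 and 0.054 in R14del-PLN, so the numbers pair the ventricles in WT-PLN. Between genotypes, samples with one number correlated more weakly, at a mean of 0.076 in LV and 0.138 in RV. Samples with other numbers were at -0.038 and -0.070. An effect shared by number across genotypes was not tested. Alternatives were other pseudocounts, filters and scalings, no intensity trend, removal of mitochondrially encoded genes, no fold threshold, fewer samples and replicate blocks. Near-identical copies were sought with BLAST 2.17.0 (95% identity, covering 80% of the shorter transcript). Positions came from GENCODE M21 and promoters from RefSeq. Figures were drawn with matplotlib 3.10.9 in Python 3.11.15.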

Additional observations from a re-analysis of the deposited data

How the results depend on the processing

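In the 5 planned comparisons 0 of the 9 genes were called, and 3 alternatives gave 1 call, each in LV between genotypes: 1 (Rrad) with the 6 LV samples alone, 1 (Gem) without both first WT-PLN samples and 1 (Rrad) without the 3 samples highest in atrial markers, an alternative chosen after the data were seen. The replicate block, fixed or random, left 0 called in each of the 5, with a consensus correlation of 0.0885 under the random one. For the average over ventricles, also added after the data were seen, 1 gene was called, 1 with the random replicate block, 0 with means of samples sharing a number, 2 without both first WT-PLN samples, and 0 to 2 when single samples were left out. Over the alternatives of the 45 gene values (9 genes in 5 comparisons), 71 of 1152 had the opposite sign, none of them called and none above 0.386 in size, and for these the cause was not tested. TPM without depth limits what can be said of the genes near 1 TPM.

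For the interaction, quantile normalization and upper quartile scaling gave -0.017 and -0.017 for Cacna1c, -0.036 and -0.041 for Cacnb2, -0.068 and -0.071 for Cacna2d1, -0.019 and -0.061 for Rrad, and -0.035 and -0.0073 for Gem. Without both first WT-PLN samples it was -0.048 for Cacna2d1 and 0.12 for Rem1, with a pseudocount of 0.1 it was -0.014 for Gem and 0.020 for Rem1, and without mitochondrially encoded genes it was 0.030 for Rem1. For WT-PLN RV against LV, quantile normalization gave 0.0070 for Cacna1g. Without the 3 samples highest in atrial markers, the genotype difference was 0.056 for Cacna1g and 0.077 for Cacna1h in LV, and -0.028 for Cacna2d1 and -0.010 for Cacna1g in RV. Under the same alternative, RV against LV was -0.031 for Cacnb2, 0.22 for Cacna1g and 0.33 for Rrad in WT-PLN, and -0.061 for Cacna1c and -0.10 for Cacnb2 in R14del-PLN.

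With single samples left out, the interaction ranged from -0.090 to 0.22 for Cacna1c, -0.11 to 0.21 for Cacnb2, -0.14 to 0.19 for Cacna2d1, -0.36 to 0.39 for Cacng6, -0.36 to 0.22 for Rrad, -0.28 to 0.43 for Gem and -0.15 to 0.21 for Rem1. The genotype difference ranged from -0.45 to 0.056 for Cacna1g and -0.31 to 0.077 for Cacna1h in LV, and from -0.068 to 0.51 for Cacna1h in RV. RV against LV ranged in WT-PLN from -0.12 to 0.17 for Cacna1c, -0.10 to 0.13 for Cacnb2, -0.38 to 0.12 for Cacna1g, -0.49 to 0.088 for Rrad and -0.68 to 0.028 for Gem, and in R14del-PLN from -0.061 to 0.22 for Cacna1c and -0.10 to 0.23 for Cacnb2.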
